A study of Bos taurus with 6 samples.

Results

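Genes of the calcineurin pathway were examined in bovine preadipocytes transfected with a miRNA agomir. They are the 3 regulators of calcineurin (RCAN1, RCAN2 and RCAN3), the calcineurin subunits PPP3CA, PPP3CB and PPP3R1, and the transcription factors NFATC1, NFATC2, NFATC3 and NFATC4. They were taken by symbol, and all 10 were found among the 23475 genes of the expression table. The group was chosen by the values of RCAN1, which had been seen to be lower with the agomir, so its values in this comparison are a description and carry no test. The other 9 genes were taken as its partners.

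The samples were preadipocytes isolated from the subcutaneous fat of calves and cultured in growth medium with serum, which the study also calls adipocytes. In 3 samples the cells were transfected with the bta-miR-484 agomir, a chemically modified RNA that raises the level of this miRNA, and in the other 3 with agomir NC, its negative control (NC below). RNA was collected 48 h after transfection. The fat came from 3 calves, but whether each library stands for another calf or for another culture of the same cells is not stated, so the SD and the p-values measure the spread between samples of unstated origin. No replicate number was used to pair libraries.

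Calcineurin is a protein phosphatase switched on by calcium and calmodulin, made of a catalytic subunit (from PPP3CA, PPP3CB or PPP3CC) and a regulatory subunit, in most tissues that of PPP3R1. It removes phosphate from NFATC proteins, which then enter the nucleus, and RCAN proteins bind calcineurin and inhibit it. NFAT in turn induces a transcript isoform of RCAN1 in many cells, and in preadipocytes calcineurin signaling is known as a brake on adipocyte differentiation.

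Expression was given as FPKM, a unit that scales the sequenced fragments by transcript length and library size, so that levels of different genes can be set side by side. Read counts were not used here, sequencing depth is therefore unknown, and no counting error can be given. Summed FPKM per library ranged from 365977 to 379361. Differences between groups were taken on log2(FPKM + 0.5) values with limma, two-sided, with Benjamini-Hochberg adjustment across the 12422 genes that averaged 0.5 FPKM or more. On this scale the change of a low gene is understated.

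The libraries had the marker profile of fibroblast-like precursor cells rather than of mature adipocytes, although their labels read adipocyte. COL1A1, a collagen chain gene, averaged 5979 FPKM over the 6 libraries, and PDGFRA, a receptor gene of adipose precursors, lay between 162 and 172 FPKM. The precursor marker DLK1 was listed at 0 in every library. ADIPOQ, which encodes the adipocyte hormone adiponectin, lay between 0.0763 and 0.197 FPKM, and the leptin gene LEP did not exceed 0.0368 FPKM. The 8 mature adipocyte markers summed to 11.5, 12.3 and 11.4 FPKM in agomir cells versus 12.6, 11.02 and 11.1 FPKM in NC cells, with LPL, a lipase gene, the most abundant at 3.73 FPKM. The 2 sets of sums overlapped, but single markers did not all do so. PPARG, the master regulator of adipocyte differentiation, was at 3.99, 3.69 and 3.91 FPKM against 3.39, 3.34 and 2.96 FPKM (limma, adjusted p = 0.407), and FABP4, which encodes a carrier of fatty acids, read 1.82, 2.33 and 1.54 FPKM against 3.57, 2.21 and 2.88 FPKM (limma, adjusted p = 0.363). All agomir values of PPARG were thus above those of NC, and those of FABP4 were mostly below. Of 10 fibroblast and precursor markers, 1 of the 9 tested had groups apart, lower with the agomir. Over all genes tested, 17.2% had groups apart in either direction and 6.36% were lower in this way. The marker was the proteoglycan gene DCN, at 2840, 2899 and 2850 FPKM against 2991, 3102 and 3248 FPKM (limma, adjusted p = 0.376). DCN had the same rank in all 6 libraries, where quantile normalization can show no difference. The 10 markers summed to 21318, 22229 and 21271 FPKM against 21048, 22114 and 21960 FPKM. The part of these differences in the results below was not tested.

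RCAN1 was by far the most abundant of the RCAN genes and the member with the widest separation of the groups. It read 81.7, 79.2 and 81.3 FPKM in agomir cells versus 96.9, 104 and 106 FPKM in NC cells. The 3 agomir values lay close together, and all were under the lowest NC value. Mean FPKM was 80.7 ± 1.34 under the agomir and 102 ± 4.88 under NC (SD, n = 3 each), which is 0.789 times the NC level. Its log2 fold change was -0.34. The mean level of RCAN1 over the 6 libraries was above that of 95.3% of the genes tested. In bulk RNA, fewer cells expressing a gene and less RNA per cell cannot be told apart, and the value per gene does not separate the NFAT-induced isoform of RCAN1 from its other transcripts.

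RCAN2 and RCAN3, the paralogs of RCAN1, did not share its separation. RCAN2 was at 6.41, 7.43 and 6.86 FPKM in agomir cells versus 7.68, 5.70 and 6.51 FPKM in NC cells, and the groups overlapped. Its log2 fold change was 0.061 (limma, 95% interval -0.18 to 0.30, adjusted p = 0.879). RCAN3 was low, at 1.46, 1.26 and 1.19 FPKM in agomir cells versus 1.44, 1.57 and 1.11 FPKM in NC cells, and again the groups overlapped. Its log2 fold change was -0.047 (limma, 95% interval -0.35 to 0.26, adjusted p = 0.934). These intervals are wide enough to hold a change of either sign, and without agomir NC replicate 2 the sign of both genes turned, to -0.036 for RCAN2 and 0.029 for RCAN3. RCAN1 made up 91.2%, 90.1% and 91.0% of the summed RCAN FPKM with the agomir and 91.4%, 93.5% and 93.3% with the agomir NC, so that the sum of the 3 genes followed RCAN1, from 110 ± 4.01 FPKM with the agomir NC to 88.9 ± 0.915 FPKM with the agomir (SD, n = 3 each).

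**Figure D1:**
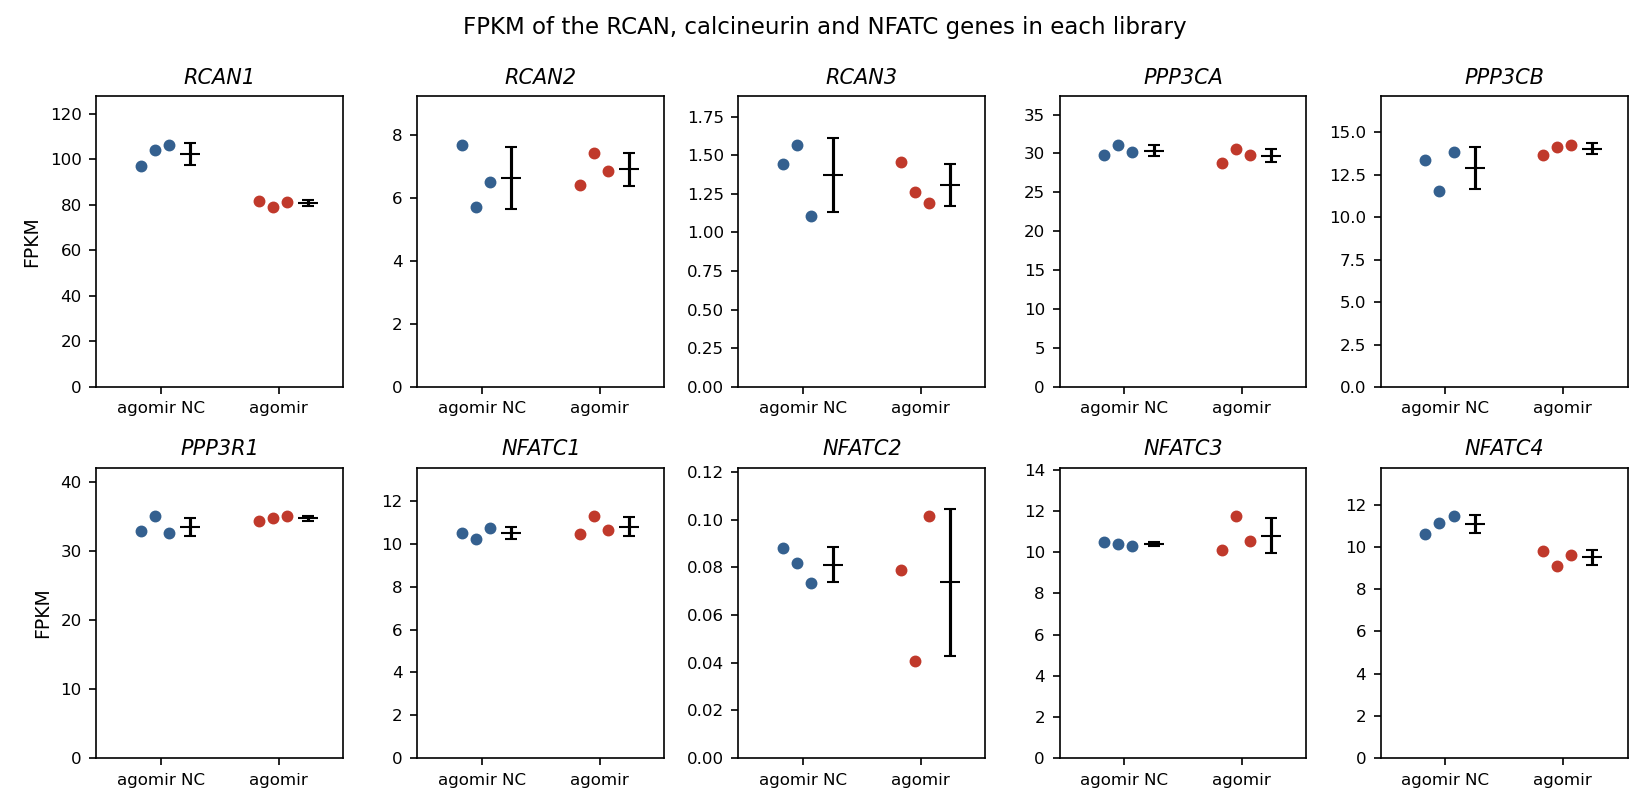
FPKM of each of the 10 genes in the 3 agomir NC libraries (blue) and the 3 agomir libraries (red), with the mean and SD of each group in black and each vertical axis starting at 0. The groups are apart in RCAN1 (79.2 to 81.7 against 96.9 to 106 FPKM) and in NFATC4 (9.10 to 9.80 against 10.6 to 11.5 FPKM), and overlap in the other 8 genes.

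The calcineurin subunit genes differed little between the groups. PPP3CA, the main catalytic subunit gene here, was at 28.8, 30.5 and 29.8 FPKM in agomir cells versus 29.8, 31.1 and 30.1 FPKM in NC cells. Its groups overlapped, and its log2 fold change of -0.030 had a 95% interval from -0.14 to 0.077 (limma, adjusted p = 0.863) and was -0.0086 without agomir replicate 1. PPP3R1, the regulatory subunit gene, was at 34.3, 34.8 and 35.1 FPKM against 32.8, 35.0 and 32.6 FPKM, and its log2 fold change was 0.053 (limma, 95% interval -0.054 to 0.16, adjusted p = 0.729). PPP3CB, the second catalytic subunit gene, was at 13.7, 14.2 and 14.3 FPKM in agomir cells versus 13.4, 11.5 and 13.8 FPKM in NC cells. Most of its difference came with the low value of agomir NC replicate 2, since the log2 fold change of 0.12 (limma, 95% interval -0.046 to 0.29, adjusted p = 0.600) was 0.044 without that library.

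The make-up of the catalytic subunits was also taken, with PPP3CC, the catalytic gene outside the group, at 7.43, 8.15 and 9.28 FPKM in agomir cells versus 6.98, 7.88 and 6.99 FPKM in NC cells. PPP3CA made up 57.8%, 57.8% and 55.8% of the summed catalytic FPKM with the agomir and 59.4%, 61.6% and 59.2% with the agomir NC. All agomir shares were under all NC shares, with means of 57.1% ± 1.11 and 60.0% ± 1.33 (SD, n = 3 each), and a two-sided p of 0.1 by exact permutation, below which groups of 3 cannot go. The summed catalytic FPKM was 52.0 ± 1.85 in agomir cells and 50.5 ± 0.414 in NC cells (SD, n = 3 each). The ratio of PPP3R1 to this sum lay between 0.639 and 0.693 over all 6 libraries and overlapped between the groups. The ratio of summed RCAN to summed catalytic FPKM, given without a test because it holds RCAN1, was 1.79, 1.66 and 1.68 with the agomir and 2.12, 2.20 and 2.24 with the agomir NC.

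Among the NFAT factors, NFATC4 was the gene whose groups were apart. It read 9.80, 9.10 and 9.61 FPKM in agomir cells versus 10.6, 11.1 and 11.5 FPKM in NC cells, so the highest agomir value was under the lowest NC value. Mean FPKM was 9.50 ± 0.363 under the agomir and 11.1 ± 0.422 under NC (SD, n = 3 each), or 0.858 times the NC level. Its log2 fold change was -0.21 (standard error 0.064, 95% interval -0.35 to -0.068), and limma gave an unadjusted p of 0.00845 and an adjusted p of 0.323, so the gene did not pass over all genes tested. Exact permutation, two-sided, put its p at the lowest possible value of 0.1. Over the alternative settings the log2 fold change stayed between -0.24 and -0.18 and limma's adjusted p between 0.295 and 0.580.

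NFATC1 and NFATC3, which encode factors of the same family, were at the level of NFATC4 but without its separation. NFATC1 was at 10.5, 11.3 and 10.7 FPKM in agomir cells versus 10.5, 10.2 and 10.8 FPKM in NC cells, a log2 fold change of 0.040 (limma, 95% interval -0.099 to 0.18, adjusted p = 0.859) that was 0.0081 without agomir replicate 2. NFATC3 was at 10.1, 11.8 and 10.5 FPKM against 10.5, 10.4 and 10.3 FPKM, a log2 fold change of 0.048 (limma, 95% interval -0.11 to 0.20, adjusted p = 0.843). Its agomir replicate 2 stood above the other 5 libraries, and without it the log2 fold change was -0.012. NFATC4 took 32.1%, 28.2% and 31.1% of the summed NFATC FPKM with the agomir and 33.5%, 34.9% and 35.1% with the agomir NC, while the sum itself lay between 30.5 and 32.6 FPKM and overlapped between the groups.

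NFATC2, best known from T cells, was close to 0 in every library, between 0.0406 and 0.102 FPKM, and was too low to be tested. The defining leukocyte markers were also close to 0, with PTPRC at no more than 0.119 FPKM and the T cell gene CD3E at no more than 0.139 FPKM. Of the 7 leukocyte markers, CD14 was the most abundant, at 6.27 FPKM on average, and the 7 summed to 7.92, 7.81 and 6.73 FPKM in agomir cells versus 7.75, 7.56 and 7.35 FPKM in NC cells. These sums overlapped between the groups.

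Of the 8 other members that could be tested, 0 passed an adjusted p of 0.05 (limma), compared with 0.00805% of all genes. At an unadjusted p of 0.05, 1 of the 8 was lower with the agomir (NFATC4), where 4.31% of all genes were, and 0 were higher, where 6.63% of all genes were. With RCAN1 counted, the groups did not overlap in 2 of 9 members, both lower with the agomir, where 17.2% of all genes did not overlap in either direction and 6.36% were lower; nothing is read from this count, since RCAN1 was chosen on the same contrast. The median log2 fold change of the 8 was 0.044, and that of all genes tested was 0.013. With 8 genes these counts are too small to set the members apart from the background.

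The members spanned a wide range of levels, and outside NFATC1, NFATC3 and NFATC4 their order was the same in all 6 libraries. Over all 6 libraries the mean was 91.6 FPKM for RCAN1, 34.1 for PPP3R1, 30.0 for PPP3CA and 13.5 for PPP3CB. Each of these lay above the next in 6 of 6 libraries with no overlap of their ranges, although PPP3R1 exceeded PPP3CA by a ratio of only 1.14. For PPP3CB the next gene was NFATC1. The range of PPP3CB, down to 11.5 FPKM, did overlap that of NFATC3, up to 11.8 FPKM. NFATC1, NFATC3 and NFATC4 followed at 10.7, 10.6 and 10.3 FPKM, and their order differed between the groups. NFATC4 was the lowest of these genes in all 3 agomir libraries and the highest in all 3 NC libraries, so its mean over the 6 libraries gives it no fixed rank. NFATC1 was above NFATC3 in 4 of 6 libraries, and their ranges overlapped. RCAN2 at 6.77 FPKM, RCAN3 at 1.34 FPKM and NFATC2 at 0.0774 FPKM were apart from their neighbors in 6 of 6 libraries. The spread within groups was small for RCAN1, PPP3R1, PPP3CA, NFATC1 and NFATC4. On the log2(FPKM + 0.5) scale the within-group SD was 0.037 for PPP3CA, 0.041 for PPP3R1 and 0.052 for RCAN1, against a median of 0.099 over all genes tested. For the NFAT factors it was 0.047 in NFATC1, 0.053 in NFATC4 and 0.077 in NFATC3. The SD was 0.098 for PPP3CB, about that median, and 0.16 for RCAN2 and 0.15 for RCAN3. That median holds genes of all levels, and genes of like level were not compared.

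The rest of the pathway was described through 77 further genes, from calcium channels to NFAT target genes, of which 62 were tested. In limma, 0 of them were under an adjusted p of 0.05. At an unadjusted p of 0.05, 7 were higher and 7 lower with the agomir, that is 7 of 62 in each direction, where 6.63% and 4.31% of all genes were. These counts moved with the settings: median-ratio scaling of the libraries gave 3 higher and 7 lower, without agomir replicate 3 there were 5 and 3, without agomir NC replicate 2 there were 6 and 3, and without agomir NC replicate 3 there were 3 and 4. Over all genes tested the same scaling changed the split from 824 higher and 535 lower to 673 and 688. The median log2 fold change of the 62 genes was 0.027, beside 0.013 for all genes tested.

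Upstream of calcineurin, the calmodulin genes CALM2 and CALM3 had lower means with the agomir. A single library, agomir replicate 3, carried most of this in CALM2 and part of it in CALM3. CALM2 was at 111, 113 and 80.0 FPKM in agomir cells versus 115, 109 and 124 FPKM in NC cells, and its log2 fold change of -0.21 (limma, adjusted p = 0.555) was -0.046 without agomir replicate 3. Its groups overlapped. CALM3 was at 67.5, 66.1 and 56.9 FPKM against 71.0, 72.1 and 68.1 FPKM, with all agomir values under those of NC, and its log2 fold change of -0.15 (limma, adjusted p = 0.440) was -0.075 without that library. Both genes encode the same protein, and how shared reads were assigned between such copies is not stated, so their single values are uncertain.

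The genes of calcium entry and release included 12 that were tested, with a median log2 fold change of 0.0094 that turned to -0.0049 under median-ratio scaling and to -0.011 under quantile normalization. The channel gene ORAI3 was the most abundant, at 31.4 FPKM on average, followed by the phospholipase gene PLCG1 at 10.6 FPKM and the channel gene ORAI2 at 9.93 FPKM, and all 3 overlapped between the groups. ITPR1, which encodes a calcium release channel of the endoplasmic reticulum, was at 8.89, 10.4 and 10.1 FPKM in agomir cells versus 8.76, 8.64 and 8.03 FPKM in NC cells. Its log2 fold change was 0.19, with limma's unadjusted p at 0.0307 and adjusted p at 0.406. PLCB3, a phospholipase gene upstream of that channel, was at 6.25, 5.78 and 6.02 FPKM against 6.69, 7.09 and 6.63 FPKM, a log2 fold change of -0.16 (limma, unadjusted p = 0.0465, adjusted p = 0.447). So all agomir values were above those of NC in the channel gene and below them in the phospholipase gene. At an unadjusted p of 0.05, 1 of the 12 was higher and 1 lower, where 6.63% and 4.31% of all genes were. The lower count was 0 with a block for replicate number, and without agomir replicate 2, agomir replicate 3 or any single agomir NC replicate. The higher count was 0 without agomir replicate 3 or agomir NC replicate 3, and 2 without agomir NC replicate 2. The ryanodine receptor genes RYR1, RYR2 and RYR3 did not exceed 0.111 FPKM.

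Among other inhibitors and anchors of calcineurin, 7 of 10 genes were tested. PPIA and FKBP1A encode the immunophilins through which cyclosporin and tacrolimus block calcineurin. PPIA averaged 435 FPKM and overlapped between the groups. FKBP1A was at 245, 227 and 227 FPKM in agomir cells versus 251, 248 and 258 FPKM in NC cells, a log2 fold change of -0.11 (limma, unadjusted p = 0.0249, adjusted p = 0.396) that was -0.075 under quantile normalization. With that normalization and with the variance trend off, 0 of the 7 had an unadjusted p under 0.05 in limma. The same was so without agomir replicate 2, agomir replicate 3 or agomir NC replicate 3. As reported, 1 of the 7 was lower at this threshold and 0 were higher, where 4.31% and 6.63% of all genes were. CHP1, a calcineurin-like calcium-binding protein gene, averaged 30.2 FPKM and overlapped. Of the substrates other than NFAT, all 6 genes were tested and all 6 overlapped between the groups, among them DNM1L, a mitochondrial fission gene, at 22.7 FPKM, the apoptosis gene BAD at 16.8 FPKM and the coactivator gene CRTC2 at 9.74 FPKM. NFAT5, a family member that calcineurin does not control, was at 12.9, 13.5 and 12.7 FPKM in agomir cells versus 12.6, 12.4 and 11.5 FPKM in NC cells, with a log2 fold change of 0.097 (limma, adjusted p = 0.613), and its lowest agomir value was just above its highest NC value. PPP3R2, the testis form of the regulatory subunit, was listed at 0 in most libraries and did not exceed 0.0890 FPKM.

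The kinases that phosphorylate NFAT, and so oppose calcineurin, were all expressed, and 11 of 11 were tested. Their median log2 fold change was 0.073, and 1 of them was higher at an unadjusted p under 0.05, where 6.63% of all genes were, so this count is near the background. This was DYRK1B, at 8.75, 8.16 and 7.67 FPKM in agomir cells versus 7.50, 7.29 and 6.84 FPKM in NC cells, a log2 fold change of 0.17 (limma, unadjusted p = 0.0462, adjusted p = 0.447). Under median-ratio scaling, quantile normalization and array weights 0 of the 11 had an unadjusted p under 0.05 in limma. The same was so without agomir replicate 1, agomir replicate 2, agomir NC replicate 2 or agomir NC replicate 3. With no filter, and without agomir replicate 3, 2 had one. Casein kinase genes were the most abundant, CSNK1A1 at 75.8 FPKM and CSNK1D at 28.4 FPKM on average, followed by MAPK14 at 20.3 FPKM. CSNK1D was higher in all 3 agomir libraries than in any NC library, at 29.3, 31.2 and 28.4 FPKM against 26.8, 27.6 and 27.4 FPKM (limma, unadjusted p = 0.0514, adjusted p = 0.460). DYRK2 was too, at 8.36, 8.03 and 8.48 FPKM against 7.54, 7.36 and 7.80 FPKM (limma, adjusted p = 0.532). With DYRK1B, 3 of the 11 were apart and higher, where 10.9% of all genes were, 0 were apart and lower, and 8 overlapped. Whether this count differs from the background was not tested. DYRK1A, a kinase that acts on both NFAT and RCAN1, was at 13.1, 12.3 and 12.4 FPKM against 11.9, 12.3 and 12.5 FPKM, and its groups overlapped.

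NFAT binds DNA together with partners, above all the AP-1 factors of the FOS and JUN families. Of 12 partner genes tested, 4 were higher and 1 lower with the agomir at an unadjusted p of 0.05, beside 6.63% and 4.31% of all genes, and the median log2 fold change was 0.11. Under median-ratio scaling 2 were higher and 1 lower, and under quantile normalization 3 and 1. The lower count was 0 without agomir replicate 1, agomir replicate 3 or agomir NC replicate 2, and the higher count was 2 without agomir replicate 1, agomir NC replicate 1 or agomir NC replicate 3 and 3 without any of the others. JUN was at 19.1, 20.04 and 18.4 FPKM in agomir cells versus 16.8, 15.0 and 15.9 FPKM in NC cells, so that its lowest agomir value exceeded its highest NC value. Its log2 fold change was 0.27 (standard error 0.062), with limma's unadjusted p at 0.00173 and adjusted p at 0.248. JUND was at 38.5, 35.9 and 36.3 FPKM against 32.5, 33.0 and 33.7 FPKM, a log2 fold change of 0.15 (limma, adjusted p = 0.332). The other genes higher at this unadjusted threshold were FOSL1, with a log2 fold change of 0.11, and MEF2D, a factor of the MADS box family, with 0.14 (limma, adjusted p = 0.442 and 0.432). FOS went the other way, at 6.40, 7.46 and 6.71 FPKM against 7.76, 8.50 and 7.78 FPKM, a log2 fold change of -0.21 (limma, adjusted p = 0.393). The AP-1 genes JUNB, at 180 FPKM on average the most abundant of the list, and FOSL2, at 40.7 FPKM, overlapped between the groups. Whatever their p, 6 of the 12 partner genes were apart and higher, where 10.9% of all genes were. Another 1 was apart and lower, where 6.36% of all genes were, and 5 overlapped. Whether these counts differ from the background was not tested.

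Genes known as NFAT targets in other cells were also listed. Of 9 tested, 3 were lower and 1 higher with the agomir at an unadjusted p of 0.05, beside 4.31% and 6.63% of all genes, and the median log2 fold change was -0.035. That median moved with single libraries, to -0.11 without agomir replicate 2 and to -0.012 without agomir NC replicate 1. Median-ratio scaling and quantile normalization each left 3 lower and 0 higher. The higher count was also 0 with the variance trend off, with the replicate block, and without agomir replicate 2, agomir replicate 3 or agomir NC replicate 2. The lower count was 2 with the variance trend off, and without agomir replicate 2, agomir NC replicate 2 or agomir NC replicate 3. IL6, a cytokine gene, was at 76.0, 73.5 and 63.8 FPKM in agomir cells versus 83.6, 84.0 and 91.9 FPKM in NC cells. The highest agomir value was under the lowest NC value, and the log2 fold change was -0.28 (standard error 0.068), with limma's unadjusted p at 0.00218 and adjusted p at 0.257. PTGS2, which encodes the inducible cyclooxygenase, was at 48.2, 48.8 and 46.8 FPKM against 51.3, 53.2 and 59.1 FPKM, a log2 fold change of -0.18 (limma, adjusted p = 0.333). VCAM1, an adhesion molecule gene, was at 36.1, 35.5 and 36.7 FPKM against 36.7, 45.4 and 42.9 FPKM, a log2 fold change of -0.20 (limma, adjusted p = 0.378), and its lowest agomir NC library nearly met its highest agomir library. F3, the tissue factor gene, lay on the other side, at 13.0, 14.5 and 13.7 FPKM against 12.8, 11.4 and 12.5 FPKM, a log2 fold change of 0.16 (limma, adjusted p = 0.438). The chemokine gene CCL2, the most abundant at 192 FPKM, and the early response genes EGR2 and EGR3 overlapped between the groups, and TNFSF11 was listed at 0 throughout. All of these genes also respond to regulators other than NFAT, and none of the 9 passed an adjusted p of 0.05 in limma.

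**Figure D2:**
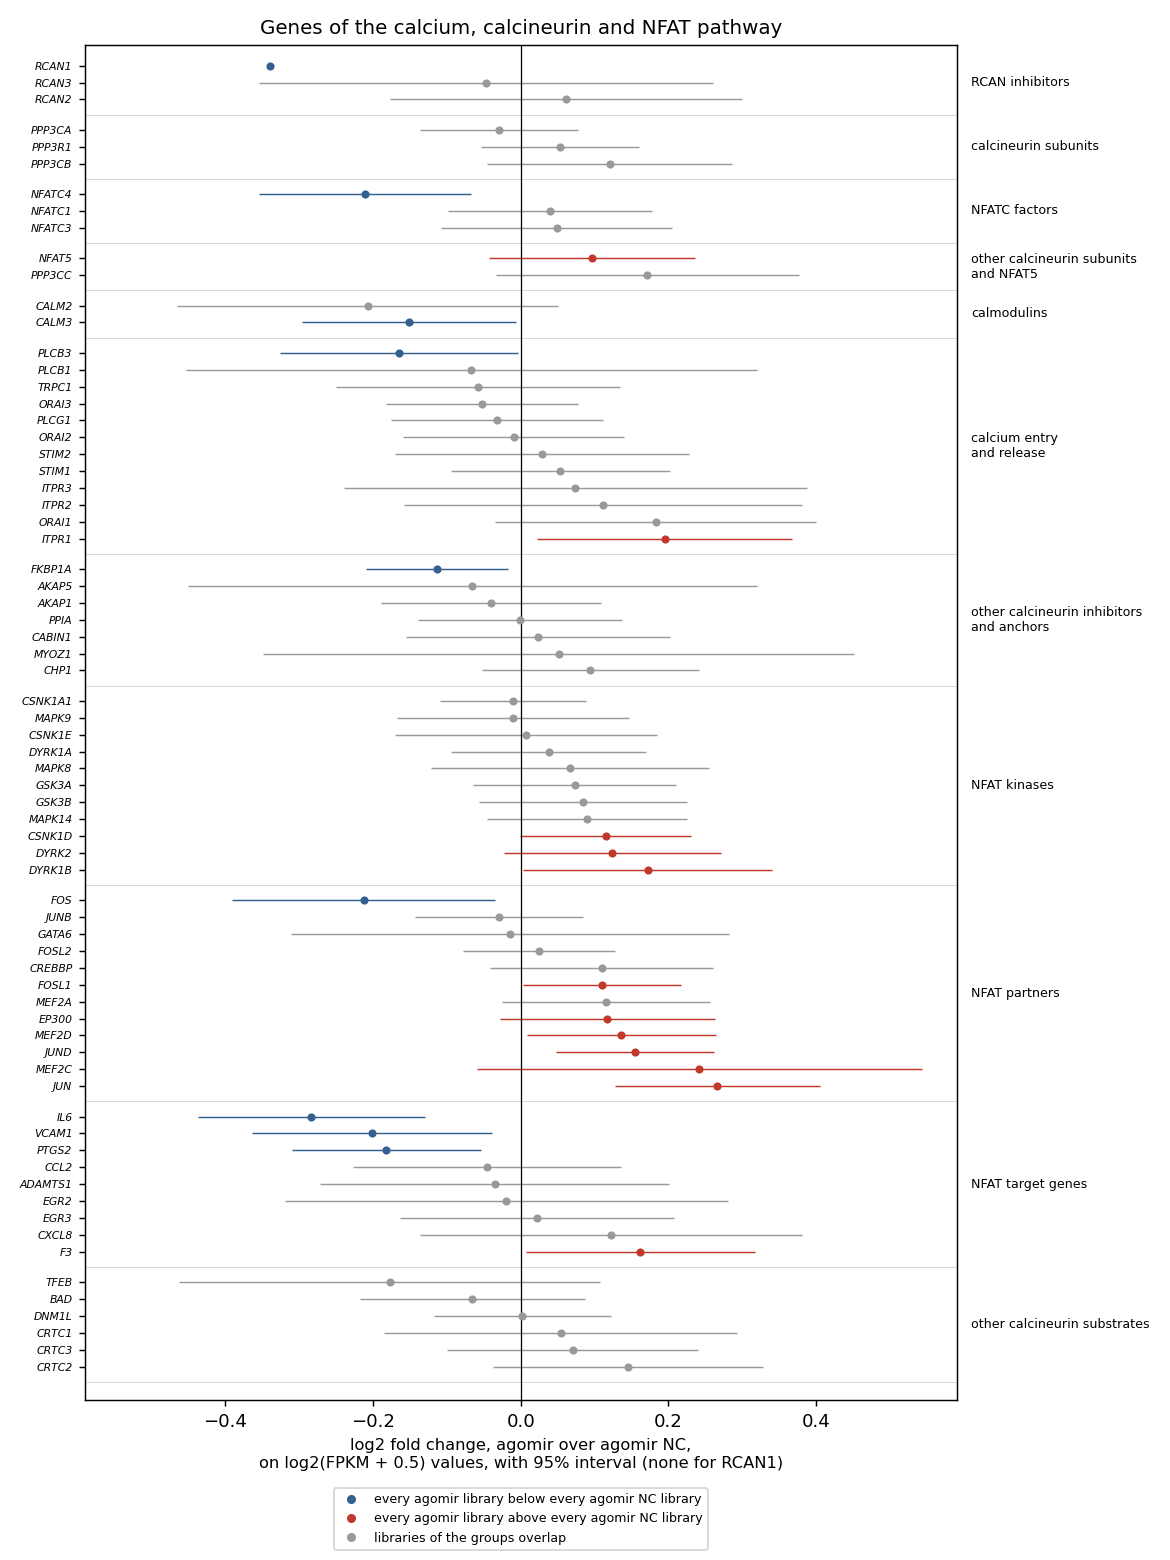
Log2 fold change (agomir over agomir NC) of the tested members and of tested pathway genes on log2(FPKM + 0.5) values, with limma's 95% interval as a bar, except for RCAN1, which is shown as a value without an interval. Blue marks genes with every agomir library below every agomir NC library, red the reverse and grey an overlap, and the values run from -0.34 (RCAN1) to 0.27 (JUN), with the 3 calcineurin subunits from -0.030 (PPP3CA) to 0.12 (PPP3CB).

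The profile of RCAN1 over the 6 libraries was compared with those of 10642 genes that have a symbol and a mean of at least 1 FPKM, by the root mean square difference of log2(FPKM + 0.5) values centered on their means. The closest gene was UNC5C, a netrin receptor gene, with a difference of 0.029. It was at 4.81, 4.63 and 4.90 FPKM in agomir cells versus 5.76, 6.01 and 6.17 FPKM in NC cells. The next were the annexin gene ANXA8L1 at 0.032, LRRC45 at 0.039, the adhesion molecule gene ICAM1 at 0.040 and the growth factor binding protein gene IGFBP5 at 0.043. ANXA8L1 was more abundant than RCAN1, at 125, 119 and 125 FPKM against 148, 156 and 153 FPKM, and IGFBP5 more so, at 252, 261 and 274 FPKM against 303, 336 and 335 FPKM. LRRC45 was low, at 0.880, 0.900 and 0.857 FPKM against 1.18, 1.27 and 1.23 FPKM, where the added 0.5 shrinks the log2 fold change, so that its closeness to RCAN1 depends on this scale. Like RCAN1, these genes were chosen for a profile that separates the groups, so their differences carry no test. Among the members NFATC4 was the closest to RCAN1, at 0.068, which restates its own difference between the groups and adds nothing to it.

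The neighbors of the RCAN genes on the chromosome were taken from the RefSeq table of assembly ARS-UCD2.0, in which all 10 members were matched by symbol. CLIC6 and KCNE1, on either side of RCAN1, were listed at 0 in all 6 libraries, so the genes next to RCAN1 could not be compared between the groups. Beside RCAN2, ENPP5 did not exceed 0.453 FPKM and CYP39A1, an oxysterol hydroxylase gene, averaged 5.96 FPKM in agomir cells and 5.62 FPKM in NC cells, with overlapping groups. Beside RCAN3, NCMAP did not exceed 0.0414 FPKM and NIPAL3 was at 11.96 ± 0.513 against 12.2 ± 0.269 FPKM (SD, n = 3 each), also with overlapping groups.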

How the data were processed

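RNA of 3 agomir and 3 agomir NC samples was sequenced with Illumina protocols. Gene expression was deposited as FPKM for every sample. The submitters' processing notes name fastp, HISAT2, StringTie and the build ARS-UCD1.2, but no versions or settings. The 23475 genes include 2441 newly assembled ones. Library depth could not be recovered: among 1899 low genes, no more than 9 shared a ratio (bins of 0.002), so values are not whole-read steps.

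Values were fitted as log2(FPKM + 0.5), 0.5 being the pseudocount, for genes averaging 0.5 FPKM or more, with limma 3.58.1 in R 4.3.3, using a variance trend and no replicate term; the fit was first tested on simulated data. Single values got the exact two-sided permutation test over 20 labelings, which cannot give a p under 0.1. Alternatives changed the pseudocount (0.1 or 1), the filter (none, or 1 FPKM), the scaling (median-ratio or quantile), the variance trend, array weights, a block for replicate number, or left out each library.

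Members and gene lists were chosen with earlier results of these data known. The text names the members, the 3 most abundant genes of each list and those with an unadjusted p under 0.05, the 5 genes most like RCAN1, the genes next to the RCAN genes, and markers. DYRK1A, DYRK2, EGR2, EGR3, the ryanodine receptor genes and TNFSF11 fall outside this rule and were picked after their values were seen. For 1 gene of the lists, values are not reported here; it stays in the counts and medians. Neighbors come from RefSeq (ARS-UCD2.0); coordinates were not used. Markers of other cell types overlapped between the groups in their sums per library for endothelial cells (3.93 to 4.83 FPKM), for smooth muscle (212 to 243 FPKM, led by ACTA2 at 207 FPKM, which cultured fibroblasts also express) and for skeletal muscle (0 to 0.232 FPKM). The epithelial sums were 0.145, 0.169 and 0.221 FPKM with the agomir and 0.311, 0.239 and 0.379 FPKM with NC; these did not overlap, and all were near 0.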

Additional observations from a re-analysis of the deposited data

How the results depend on the processing

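NFATC4 was lower under the agomir in all 15 alternatives (log2 fold change -0.24 to -0.18), and 0 of the other members reached an adjusted p of 0.05 in limma in any of them; in the reported setting 1, NFATC4, had an unadjusted p under 0.05. Across all genes 1 passed as reported. With no filter 0 passed (1604 at an unadjusted p under 0.05), with the variance trend off 0 (1249), and with the replicate block 0 (1260); leaving out 1 library gave 0 to 2. Leaving out 1 library moved RCAN2 between -0.036 and 0.16, RCAN3 between -0.15 and 0.029 and NFATC3 between -0.012 and 0.092; each sign turned in 1 of 6 such fits, which have fewer samples. PPP3CA then lay between -0.049 and -0.0086, PPP3CB between 0.044 and 0.17, PPP3R1 between 0.034 and 0.085 and NFATC1 between 0.0081 and 0.062, with no sign turned. The pathway median of 0.027 became 0.012 under median-ratio scaling, which also took the all-gene median from 0.013 to -0.00071, and 0.034 to 0.047 with 1 library left out. Pathway genes at an unadjusted p under 0.05, 7 higher and 7 lower as reported, were 6 and 4 with the variance trend off, 4 and 5 under quantile normalization and 4 and 6 with the replicate block, which left 2 higher and 1 lower among the NFAT partners (4 and 1 as reported). PPP3CA's catalytic share differed by -2.92 percentage points (-3.37 to -2.16 across 7 alternatives). Replicate numbers did not pair the samples: the correlations within numbers were -0.051, 0.053 and 0.039, and the block changed no call among the members. Without depth, counting error cannot be given for RCAN3 and NFATC2.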
